A study of Homo sapiens with 4 samples.

Results

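Accessible chromatin was examined around 10 genes of the TWEAK receptor and TNF receptor superfamily in SKBR3 cells by ATAC-seq, an assay in which the Tn5 transposase cuts and tags open DNA. The genes were TNFRSF12A, TNFSF12, TNFRSF1A, TNFRSF1B, LTBR, CD40, FAS, TNFRSF10B, TNFRSF11B and TNFRSF21, taken by name from GENCODE release 44. SKBR3, an established line of breast cancer cells, is HER2-positive. Of its libraries, 2 were untreated and 2 came from cells that received TWEAK at 10 ng/ml for 48 h, with the cytokine renewed after 24 h. The growth protocol, which is shared by both groups, gives 24 h between seeding and an 8 h starvation, and names no vehicle for the untreated cells. Peaks of the 4 lists that overlapped by at least 1 bp were merged into sites, and a site was kept when it lay within 100 kb of any annotated transcript start of a member. This gave 657 sites of 307691 in all.

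TWEAK, the product of TNFSF12, is a cytokine of the TNF family that signals through the small receptor Fn14, the product of TNFRSF12A. Receptors of this superfamily share cysteine-rich extracellular domains and recruit TRAF adaptors or, in the death receptors, adaptors with a death domain. Fn14, TNFR2, the lymphotoxin β receptor and CD40 are known for engaging the non-canonical as well as the canonical NF-kB pathway, whereas FAS, DR5 and TNFR1 are known for coupling to cell death. Peaks at these genes show where the chromatin of each receptor locus is open, and do not measure the receptor itself.

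The strength of a peak was read in 2 ways. The first is its rank percentile within its own list, with 100 for the strongest peak. The second is its fold over background, the whole-number pileup of reads recovered from the deposited value divided by the background of that list. The lists held between 195315 and 228644 peaks and had backgrounds between 1.85 and 3.59 reads, so that a peak in the shallowest list, TWEAK replicate 2, needed a larger fold to be called. Among lineage markers, a promoter peak was present in all 4 lists for 9 of 10 luminal and HER2 genes, with ERBB2 and GRB7 at percentiles of at least 99.99, whereas CDH1 had none in any list. Promoter peaks in all 4 lists were also found for 6 of 6 basal or mesenchymal, 4 of 4 fibroblast, 2 of 4 blood and 2 of 3 endothelial genes. The share over all 19962 protein-coding genes was 76.6%, so that a promoter peak alone did not single out a cell type. Among genes with a promoter peak in all 4 lists, the median percentile was 98.2 for luminal and HER2 genes. It was 63.6 for basal or mesenchymal, 67.2 for fibroblast, 90.5 for blood, 90.5 for endothelial and 91.5 for all protein-coding genes.

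When the strongest promoter peak of each member was taken in each list, those of FAS and TNFRSF1B differed most in rank between the groups. Of the 12 sites around FAS, 5 had a peak in both TWEAK lists and in neither untreated list, and the strongest promoter peaks of both genes ranked higher in both TWEAK lists than in both untreated lists. By the same measure the other 8 members, TNFRSF12A and TNFSF12 among them, differed by less than 4 points between the group means. At TNFRSF10B a site 5532 bp upstream of the start site had the greatest difference in rank, TWEAK minus untreated, of the member sites with a peak in all 4 lists. With 2 libraries against 2, the smallest p that an exact permutation test can give is 0.333, so no test here can pass 0.05.

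Sequences are shown for some of the regions described here. The first are 2 stretches of the FAS promoter on the plus strand, at chr10:88990664-88990963 and chr10:88991181-88991480, and the TNFRSF1B promoter on the plus strand at chr1:12166741-12167040, all from RefSeq on GRCh38.p14. Of the 10 members, 5 had a RefSeq promoter in the reference table used here. Capitals mark matches on either strand to the GC box (GGGCGG), the CCAAT box (CCAAT), AP-1 (TGACTCA) and the NF-kB consensus, and overlapping matches run together.
FAS promoter, main start: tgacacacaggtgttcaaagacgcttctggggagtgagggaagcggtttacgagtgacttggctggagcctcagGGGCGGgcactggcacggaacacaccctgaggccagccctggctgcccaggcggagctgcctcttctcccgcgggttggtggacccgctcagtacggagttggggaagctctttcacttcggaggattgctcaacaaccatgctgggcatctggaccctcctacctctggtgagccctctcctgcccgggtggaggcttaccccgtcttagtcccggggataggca
FAS promoter, downstream start: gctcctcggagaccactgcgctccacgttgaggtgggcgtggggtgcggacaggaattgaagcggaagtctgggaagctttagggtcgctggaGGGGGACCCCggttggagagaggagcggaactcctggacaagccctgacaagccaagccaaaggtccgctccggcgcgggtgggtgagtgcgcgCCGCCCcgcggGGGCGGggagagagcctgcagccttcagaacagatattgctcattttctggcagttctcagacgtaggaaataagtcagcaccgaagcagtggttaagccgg
TNFRSF1B promoter: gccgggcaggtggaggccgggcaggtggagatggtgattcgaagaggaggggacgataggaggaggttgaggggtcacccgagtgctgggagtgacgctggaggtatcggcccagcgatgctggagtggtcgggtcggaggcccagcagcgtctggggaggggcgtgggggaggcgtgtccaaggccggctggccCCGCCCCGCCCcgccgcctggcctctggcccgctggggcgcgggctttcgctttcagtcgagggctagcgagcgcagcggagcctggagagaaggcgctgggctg
The downstream FAS stretch held the NF-kB match of the FAS promoters and the other FAS stretch shown held a GC box. No NF-kB or AP-1 match was found in the TNFRSF1B promoter, which held 2 overlapping GC boxes. Of all 35116 RefSeq promoters of this length, 11.3% held an NF-kB match, 4.95% an AP-1 match, 45.0% a GC box and 34.6% a CCAAT box.

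The second set holds 201 bases, plus strand of hg38, centred on the best-ranked peak of 3 gained sites in the FAS window, of a gained site at IL32 in the TNFRSF12A window and of a site in TNFRSF8 in the TNFRSF1B window that ranked higher with TWEAK. They are at chr10:88858594-88858794, chr10:88993297-88993497, chr10:89032261-89032461, chr16:3065236-3065436 and chr1:12135728-12135928. Capitals mark NF-kB and AP-1 matches.
FAS upstream intergenic: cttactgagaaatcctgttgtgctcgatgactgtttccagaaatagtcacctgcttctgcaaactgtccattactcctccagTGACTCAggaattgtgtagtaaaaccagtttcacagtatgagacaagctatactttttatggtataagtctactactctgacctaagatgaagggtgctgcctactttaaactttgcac
FAS intron: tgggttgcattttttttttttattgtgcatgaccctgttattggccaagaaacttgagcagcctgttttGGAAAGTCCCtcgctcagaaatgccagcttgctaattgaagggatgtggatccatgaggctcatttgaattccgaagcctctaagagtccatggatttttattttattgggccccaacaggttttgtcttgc
FAS downstream intergenic: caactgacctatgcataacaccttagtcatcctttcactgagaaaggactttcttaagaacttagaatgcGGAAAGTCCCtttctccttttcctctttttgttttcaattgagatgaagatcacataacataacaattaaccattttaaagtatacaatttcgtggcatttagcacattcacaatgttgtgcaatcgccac
IL32 promoter: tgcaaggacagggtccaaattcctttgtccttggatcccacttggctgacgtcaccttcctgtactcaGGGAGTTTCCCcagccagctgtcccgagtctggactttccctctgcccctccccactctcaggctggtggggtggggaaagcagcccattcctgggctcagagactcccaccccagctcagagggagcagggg
TNFRSF8 intron: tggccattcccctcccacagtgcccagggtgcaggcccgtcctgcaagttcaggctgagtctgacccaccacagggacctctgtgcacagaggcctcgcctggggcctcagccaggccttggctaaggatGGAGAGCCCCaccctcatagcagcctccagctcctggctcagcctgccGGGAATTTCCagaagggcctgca
The upstream FAS site held an AP-1 match, and the intronic and downstream FAS sites each held an NF-kB match. The IL32 and TNFRSF8 sites held 2 NF-kB matches each, which overlapped at IL32. A match describes the letters of the window and is not evidence that a factor was bound.

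The ligand and receptor of the pathway were taken first. The gene of Fn14, TNFRSF12A, lies on chromosome 16 at 3018445 to 3022383 on the plus strand of hg38. Its main start site lay under a peak at 3020087 to 3020596 that ranked at 85.7 and 84.9 in the untreated lists and at 82.7 in TWEAK replicate 1, and that was absent from TWEAK replicate 2. A second peak inside the gene, at 3021222 to 3021766, ranked at 84.2 in untreated replicate 1 and at 81.7 and 79.9 in the TWEAK lists, and was absent from untreated replicate 2. Each list therefore had at least 1 of the pair. Taking the stronger peak in each list, the promoter percentile of TNFRSF12A differed by -3.98 points, TWEAK minus untreated, but its fold over background was 30.7 and 31.8 in untreated and 29.6 and 30.9 in TWEAK libraries, which overlap. With distances measured from peak centres the neighbouring peak no longer counted and the difference became -43.9 points, a value set by TWEAK replicate 2.

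Next to the gene, a peak at 3022227 to 3022739, over its 3′ end, ranked at 87.1, 92.1, 87.3 and 85.2 in untreated replicates 1 and 2 and TWEAK replicates 1 and 2. The adjoining site at 3022758 to 3024596 ranked between 95.7 and 96.1 in the 4 lists. These neighbours were thus in the upper part of every list. An intergenic site near CLDN9 at 3009756 to 3010266, 8179 bp from the nearest TNFRSF12A start site, ranked at 95.5 and 96.5 in untreated and at 98.1 and 97.7 in TWEAK libraries, with folds of 65.0, 81.4, 102.2 and 104.5.

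The TNFRSF12A window held 75 sites, of which 35 were shared by all 4 lists. Sites present in both TWEAK lists and in neither untreated list are called gained, and those with the opposite pattern lost. The window had 3 gained sites and no lost site, compared with 3.60% gained and 3.79% lost among all sites. Of the gained sites, 2 lay at promoters of IL32, which encodes a pro-inflammatory cytokine. The IL32 site at 3065044 to 3065586 ranked at 25.5 and 51.2 in the TWEAK lists and had an untreated peak 304 bp away. The other IL32 site, at 3068439 to 3068977, ranked at 29.2 and 23.03. The gained site near ZSCAN10, at 3088340 to 3088868, ranked at 11.2 and 23.03. None of the 3 was above the 50th percentile in both TWEAK lists.

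The gene of TWEAK itself, TNFSF12, lies on chromosome 17 at 7548508 to 7557890 on the plus strand. A promoter peak was listed only in untreated replicate 1, at a percentile of 6.15 and with 11 reads, where the lowest pileup called in that list was 10. The other 3 lists had no promoter peak, and the ligand gene had the lowest promoter percentile of the 10 members in every list. Past its 3′ end, a peak at 7557980 to 7558523 ranked at 94.7, 97.0, 95.6 and 96.8 in untreated replicates 1 and 2 and TWEAK replicates 1 and 2. That peak is the promoter peak of TNFSF13, which encodes the related ligand APRIL.

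The TNFSF12 window held 54 sites, with 1 gained and 1 lost. The gained site, at a promoter of EIF4A1 at 7577181 to 7577747, ranked at 55.8 and 37.7 and had an untreated peak 38 bp away. The lost site, at a promoter of POLR2A at 7511373 to 7511994, ranked at 6.15 and 9.60 in the untreated lists. A shared site in an intron of ZBTB4 at 7474696 to 7475246 was higher in both TWEAK lists, with percentiles of 27.2 and 33.5 in untreated and 57.0 and 57.3 in TWEAK libraries.

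**Figure D1:**
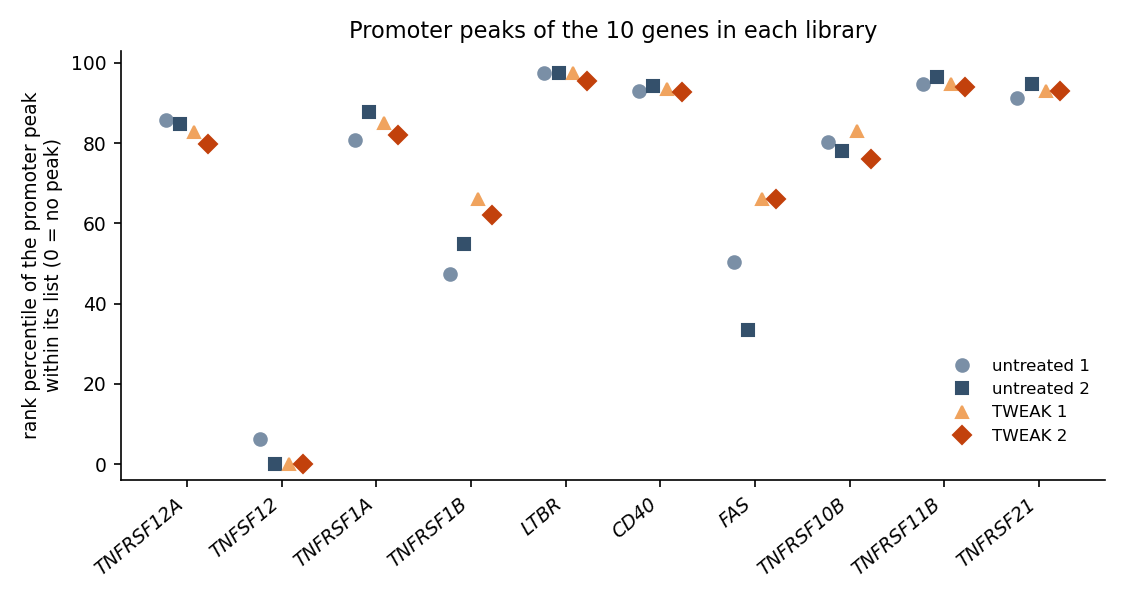
Rank percentile of the promoter peak of each of the 10 genes (y axis, 0 where a list has no promoter peak), with 1 symbol for each library. FAS and TNFRSF1B are the genes whose TWEAK symbols both lie above both untreated symbols, FAS at 66.2 and 66.0 against 50.3 and 33.5, and TNFSF12 lies at or near 0.

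Of the 10 members, 9 had a promoter peak in all 4 lists, compared with 76.6% of 19962 protein-coding genes. By rank, 2 of the 9 (FAS and TNFRSF1B) were higher in both TWEAK lists than in both untreated lists and 1 (TNFRSF12A) was lower, whereas 8.46% of the 15296 genes with a promoter peak in all lists were higher and 35.6% lower. By fold over background, 3 of the 9 were higher (FAS, TNFRSF1B and TNFRSF10B) and none lower, against 25.1% higher and 7.26% lower among those genes. The 2 scales thus move the background itself in opposite directions, and FAS and TNFRSF1B were higher on both. Averaged over the 10 members, with 0 for a missing peak, the promoter percentile was 72.7 and 72.2 in untreated and 76.2 and 74.1 in TWEAK libraries, a difference of 2.69 points (two-sided exact permutation p = 0.333, the lowest that 4 libraries allow). It was -1.31 with distances from peak centres.

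FAS, the receptor of FAS ligand and a death receptor of the extrinsic apoptosis pathway, lies on chromosome 10 at 88953813 to 89029605 on the plus strand. Its promoter site at 88990297 to 88991020, the site of the first sequence shown above, ranked at 50.3 and 33.5 in untreated and at 66.2 and 66.0 in TWEAK libraries. The pileups behind these ranks were 27 and 12 reads in untreated and 38 and 33 reads in TWEAK libraries. As fold over background the values were 7.53 and 5.37 against 14.4 and 17.9, so that the groups did not overlap on either scale. The mean percentile was 41.9 ± 11.9 in untreated and 66.1 ± 0.114 in TWEAK libraries (SD, n = 2), a difference of 24.2 points (two-sided exact permutation p = 0.333, the lowest that 4 libraries allow). Leaving out untreated replicate 2, the lower of that pair, gave 15.7 points. The annotated 5′ end of the gene lies further upstream and had no peak within 1 kb in any list.

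The FAS window was sparse and held more peaks in the TWEAK lists. There were 12 sites, and 5 (41.7%) were gained and 0 lost. The number of peaks was 6 and 7 in untreated and 12 and 12 in TWEAK libraries, and peaks covered 1.16% and 1.36% of the window in untreated and 2.32% in each of the TWEAK libraries. Of the 5 gained sites, 4 had no untreated peak within 500 bp.

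The gained sites of FAS were spread over the window. The farthest upstream, at 88858428 to 88858944 in intergenic sequence near ANKRD22, ranked at 51.8 and 51.2 in the TWEAK lists, and its neighbour at 88865423 to 88865927 at 44.9 and 47.5. The promoter site at 88991147 to 88991833, over the downstream start site, ranked at 35.5 and 31.2 and was the gained site with a close untreated peak, 157 bp away. The site in the FAS intron at 88993115 to 88993647 ranked at 38.1 and 54.5. The intergenic site downstream of the gene, at 89032090 to 89032611, ranked at 61.2 and 57.3, the highest of the 5. Both this site and the one near ANKRD22 lay above the 50th percentile in both TWEAK lists.

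Beside the promoter, another shared site of the FAS window ranked higher in both TWEAK lists. The intergenic site at 89042520 to 89043069 ranked at 33.1 and 54.8 in untreated and at 71.2 and 63.2 in TWEAK libraries, 23.2 points higher with TWEAK. Of the 6 shared sites, 2 were higher and 1 lower by rank, against 15.8% higher and 35.4% lower among all shared sites. By fold over background, 5 were higher and 0 lower, against 34.8% and 12.2% of all shared sites. The strongest site outside the promoter, in an intron of STAMBPL1 at 88932511 to 88933050, ranked at 80.6, 74.3, 80.0 and 81.4 in untreated replicates 1 and 2 and TWEAK replicates 1 and 2, so that its groups overlapped by rank. Its folds, 23.1 and 18.3 in untreated and 25.8 and 33.03 in TWEAK libraries, did not overlap. The gained count of FAS was between 3 and 6 under the alternative settings, with 3 in a window of 50 kb, and 5 or 6 when any library was left out.

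**Figure D2:**
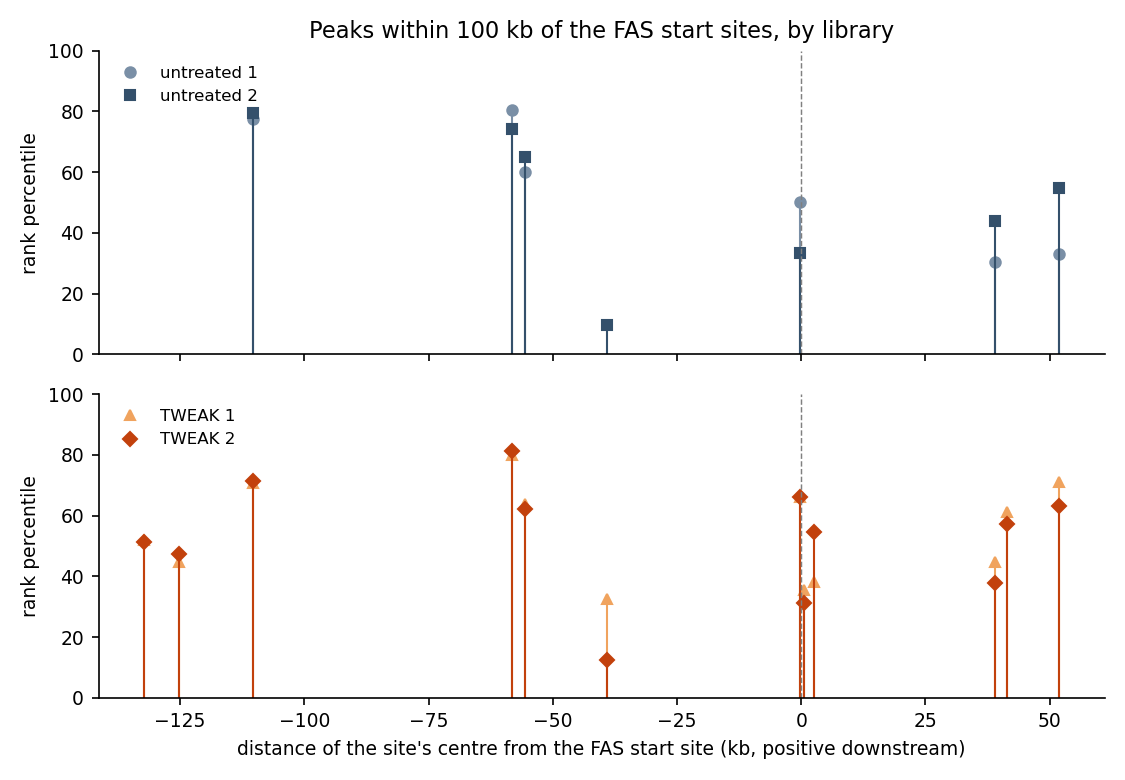
Peaks within 100 kb of the start sites of FAS in the untreated (upper) and TWEAK (lower) lists, by distance of the site's centre in kb from the RefSeq start of the first FAS sequence shown (x axis) and rank percentile (y axis), with 1 symbol for each library. The lower panel has 5 sites that the upper panel lacks, and the site at the start stands at 66.2 and 66.0 in it, against 50.3 and 33.5 in the upper panel.

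TNFRSF1B encodes TNFR2, a TNF receptor without a death domain, and lies on chromosome 1 at 12166991 to 12209228 on the plus strand. Its promoter site at 12166692 to 12167229 ranked at 47.4 and 54.8 in untreated and at 66.2 and 62.1 in TWEAK libraries. The folds over background were 6.97 and 8.95 in untreated and 14.4 and 15.7 in TWEAK libraries, again without overlap. The difference was 13.1 points, with means of 51.1 ± 5.22 and 64.1 ± 2.87 (SD, n = 2, exact permutation test, two-sided, p = 0.333). A second promoter site just upstream, at 12165287 to 12166036, was absent from untreated replicate 1 and ranked at 3.28 in the other untreated list and at 32.5 and 40.5 in the TWEAK lists. The peak at the internal start site, at 12191075 to 12192340, ranked at 42.2 and 9.60 in untreated and at 2.25 and 12.3 in TWEAK libraries, and its groups overlapped by rank and by fold.

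Of the 21 shared sites around TNFRSF1B, 8 were higher and 3 lower in both TWEAK lists by rank, where the shares over all shared sites are those given for FAS. Their median change was 1.36 points, where that of all 131751 shared sites was -1.75. By fold over background, 12 were higher and 1 lower. Several of the 8 lay in TNFRSF8, the neighbouring gene, which encodes the receptor CD30. The intronic TNFRSF8 site at 12135578 to 12136096, shown above, ranked at 69.9 and 67.7 in untreated and at 88.9 and 90.0 in TWEAK libraries. The exonic TNFRSF8 site at 12143570 to 12144125 ranked at 85.7 and 87.5 in untreated and at 93.9 and 93.6 in TWEAK libraries. In TNFRSF1B itself, the intronic site at 12177887 to 12178639 ranked at 15.1 and 28.8 in untreated and at 44.9 and 34.6 in TWEAK libraries.

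The TNFRSF1B window held 53 sites, with 3 gained (5.66%) and 1 lost. The gained sites were weak. They ranked at 16.4 and 37.7 (a TNFRSF8 promoter, 12126654 to 12127185), 21.4 and 23.03 (intergenic, 12157646 to 12158201) and 6.62 and 17.9 (TNFRSF1B intron, 12184085 to 12184620). The lost site, in a TNFRSF8 intron at 12079531 to 12080064, ranked at 38.0 and 43.8 in the untreated lists.

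TNFRSF1A, which encodes TNFR1, and LTBR, which encodes the lymphotoxin β receptor, lie close together on chromosome 12, at 6328757 to 6342114 on the minus strand and at 6375045 to 6391571 on the plus strand. Their windows shared 76 sites, which is 77.6% of the 98 sites of TNFRSF1A and 88.4% of the 86 sites of LTBR, so their counts are not independent. At the main TNFRSF1A start, the site at 6341802 to 6342336 ranked at 80.8 and 87.9 in untreated and at 83.2 and 81.4 in TWEAK libraries, and the groups overlapped. An internal start site of TNFRSF1A, with a peak at 6332438 to 6332968, ranked at 76.9 and 74.8 in untreated and at 84.9 and 82.0 in TWEAK libraries, with folds of 19.2 and 18.8 against 33.4 and 34.1. The strongest promoter peak of TNFRSF1A was thus at the main start in the untreated lists and at the internal start in the TWEAK lists. In the TWEAK lists the peaks at these starts were close, with 88 and 63 reads at the internal and 80 and 61 at the main start. LTBR had the highest mean promoter percentile of the 10 members, at 97.5 in both untreated lists and at 97.5 and 95.4 in the TWEAK lists.

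The TNFRSF1A window had 5 gained and 4 lost sites, and the LTBR window had 5 gained and 4 lost. The same 5 gained sites counted for both genes. The strongest was at a promoter of PLEKHG6 at 6320165 to 6320676, which ranked at 65.4 and 62.1 in the TWEAK lists and had an untreated peak 93 bp away. The other gained sites ranked below the 50th percentile in both TWEAK lists, at 46.8 and 12.3 (6286756 to 6287271, intergenic), 38.1 and 7.37 (6369726 to 6370235, an SCNN1A intron), 11.2 and 7.37 (6393792 to 6394501, intergenic) and 2.25 and 7.37 (6328680 to 6329668, a TNFRSF1A exon). Among the lost sites, an intergenic site near CD9 at 6266446 to 6266953 ranked at 91.0 and 93.3 in the untreated lists, and a site in LTBR and SCNN1A at 6376514 to 6377019 at 66.7 and 73.2. TWEAK peaks lay 200 bp and 191 bp from these. A PLEKHG6 promoter site shared by all lists, at 6312684 to 6313275, had folds of 81.1 and 94.8 in untreated and 156.9 and 166.8 in TWEAK libraries, and percentiles of 97.4 and 97.6 against 99.5 and 99.5.

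The lost sites of lower rank near TNFRSF1A and LTBR were at 6305521 to 6306297 (30.3 and 22.8, intergenic), at a promoter of SCNN1A at 6360788 to 6361410 (10.2 and 15.99) and at a promoter of TAPBPL at 6458591 to 6459143 (6.15 and 22.8). Of the 45 shared sites of TNFRSF1A, 6 were higher and 17 lower by rank, and 10 were higher and 5 lower by fold. Of the 39 of LTBR, 5 were higher and 14 lower by rank, and 9 and 3 by fold. The medians, -2.43 and -1.91 points, lay near the -1.75 points of all shared sites.

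CD40, the receptor of CD40 ligand, lies on chromosome 20 at 46118271 to 46129863 on the plus strand. Its promoter site at 46117965 to 46118476 ranked at 93.1 and 94.2 in untreated and at 93.5 and 92.7 in TWEAK libraries, with folds of 51.9, 63.5, 60.01 and 63.9 in the same order. The difference of -0.502 points was smaller than the SD of either group. The CD40 window had 110 sites, with 2 gained (1.82%) and 10 lost (9.09%). The 10 lost sites were weak, with the lower of their untreated percentiles at 15.1 or below in 9 of them and at 22.8 for the site at 46101697 to 46102836, and 6 had a TWEAK peak within 500 bp. The gained site near SLC12A5 at 46019044 to 46019744 ranked at 2.25 and 7.37, and the one in a CDH22 intron at 46185832 to 46186704 at 21.4 and 12.3. Of the 30 shared sites of the CD40 window, 1 was higher and 6 lower by rank, and 9 were higher and 1 lower by fold. The site higher by rank, in a CDH22 intron at 46205967 to 46206477, ranked at 69.4 and 73.2 in untreated and at 89.4 and 91.8 in TWEAK libraries.

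TNFRSF21, which encodes the death receptor DR6, lies on chromosome 6 at 47231532 to 47309905 on the minus strand. Its promoter site at 47309719 to 47310227 ranked at 91.3 and 94.7 in untreated and at 92.9 and 93.1 in TWEAK libraries, with overlapping groups. The TNFRSF21 window held 10 sites, 2 of them shared, with no gained and no lost site. The shared site near CD2AP at 47405232 to 47405801 ranked lower with TWEAK, at 62.1 and 61.0 against 73.8 and 78.5.

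TNFRSF10B, which encodes the TRAIL receptor DR5, lies on chromosome 8 at 23020133 to 23069031 on the minus strand. Its promoter site at 23068827 to 23069358 ranked at 80.4 and 78.1 in untreated and at 83.0 and 76.0 in TWEAK libraries, a difference of 0.251 points. Its folds, 22.9 and 21.9 against 30.0 and 26.0, did not overlap. The site 5532 bp upstream of the start, at 23074563 to 23075076 in intergenic sequence, ranked at 40.2 and 33.5 in untreated and at 86.6 and 86.9 in TWEAK libraries. The pileups there gave folds of 5.85 and 5.37 in untreated and 36.8 and 43.9 in TWEAK libraries. The difference of 49.9 points was exceeded by 183 of the 131751 shared sites (0.139%). As the site is the largest of the 272 shared member sites, that share does not measure how unusual it is. The difference was between 46.6 and 53.3 points when any library was left out. This site held NF-kB and AP-1 matches. Among all shared sites that ranked at least 20 points higher with TWEAK without overlap, 25.8% held an NF-kB and 23.7% an AP-1 match. It was chosen for description after its values were seen, as were the other shared sites outside promoters that ranked higher with TWEAK.

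The TNFRSF10B window held 41 sites, with 1 gained and 1 lost. The gained site, near TNFRSF10C at 23120102 to 23120609, ranked at 40.6 and 56.0, had no untreated peak within 500 bp and held both motifs. The lost site, at a promoter of RHOBTB2 at 22987709 to 22988330, ranked at 19.8 and 33.5 and had a TWEAK peak 303 bp away. A promoter site of TNFRSF10B at 23068271 to 23068810 was absent from untreated replicate 1 and ranked at 28.8 in the other untreated list and at 53.3 and 54.5 in the TWEAK lists.

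TNFRSF11B, which encodes osteoprotegerin, a secreted decoy receptor of RANKL, lies on chromosome 8 at 118923557 to 118951885 on the minus strand. Its window was the most densely covered of the members, with 194 sites and with peaks over 38.9% and 35.3% of its length in untreated and 33.3% and 29.0% in TWEAK libraries, where peaks covered between 3.23% and 3.78% of chromosomes 1 to 22 and X. Whether DNA copy number adds to this density was not tested. The promoter site at 118951481 to 118952001 ranked at 94.7 and 96.4 in untreated and at 94.8 and 94.0 in TWEAK libraries, with overlapping groups. Of the other 4 promoter sites, which were weaker, 2 ranked lower in both TWEAK lists. The one at 118927656 to 118928596 ranked at 15.1 and 48.9 in untreated and at 11.2 and 7.37 in TWEAK libraries, and the one at 118952206 to 118952912 at 47.4 and 53.0 against 40.6 and 34.6. By fold over background the groups overlapped at both. There were 2 gained (1.03%) and 12 lost (6.19%) sites, and each ranked at or below 40.2 in the libraries that had it. Of the 85 shared sites, 10 were higher and 35 lower by rank, with a median change of -6.04 points, but 28 were higher and 13 lower by fold. The direction of the window therefore followed the scale.

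The highest site of the TNFRSF11B window, intergenic at 118961837 to 118962342, ranked between 99.5 and 99.6 in the 4 lists. The shared site that ranked higher with TWEAK by the most points was intergenic at 118843607 to 118844195, with percentiles of 38.0 and 54.8 in untreated and 75.4 and 72.7 in TWEAK libraries. An intergenic site 23453 bp from the start, at 118905109 to 118905620, ranked at 70.4 and 65.0 in untreated and at 84.7 and 85.7 in TWEAK libraries. Another at 118862132 to 118863205 ranked at 81.5 and 83.3 in untreated and at 92.8 and 91.9 in TWEAK libraries. More sites of the TNFRSF11B window ranked lower with TWEAK. The difference reached -28.3 points at 118998244 to 118999520, where the percentiles were 38.0 and 37.4 in untreated and 16.4 and 2.52 in TWEAK libraries. Within the TNFRSF11B gene, the site at 118925945 to 118927526 ranked at 90.1 and 89.1 in untreated and at 67.5 and 61.0 in TWEAK libraries, and the site at 118944537 to 118945048 at 87.8 and 89.8 against 68.2 and 57.3. The folds at both of these sites were also lower in both TWEAK lists.

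**Figure D3:**
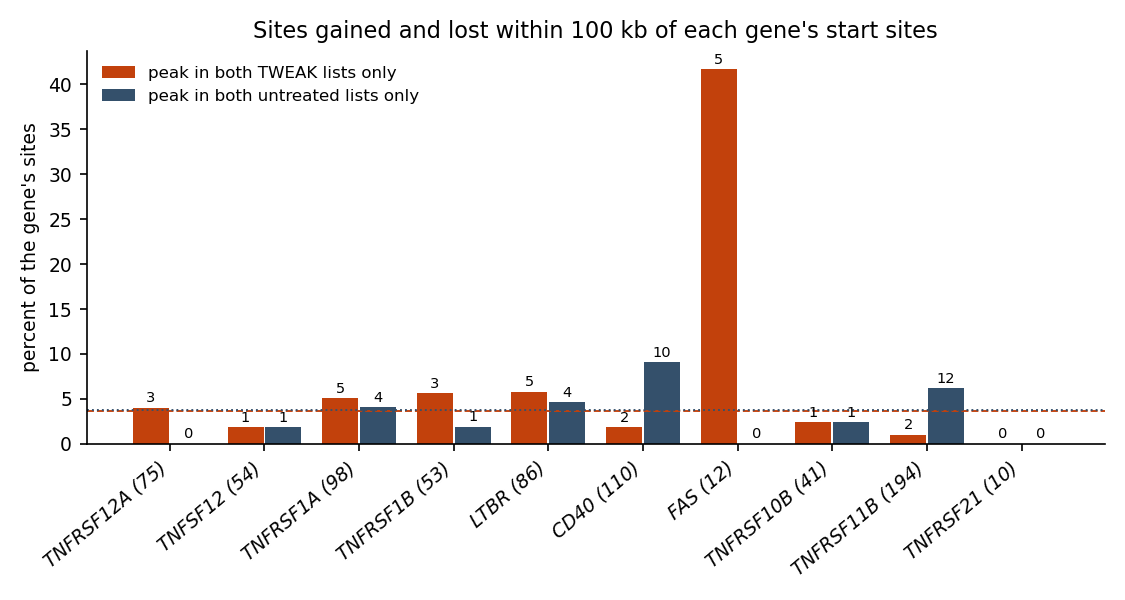
Percent of the sites within 100 kb of each gene's start sites (number of sites in parentheses) that had a peak in both TWEAK lists only (red) or in both untreated lists only (blue), with the number of sites above each bar. The red dashed and blue dotted lines mark all sites of the genome, 3.60% and 3.79%. FAS stands at 41.7% gained, from 5 of 12 sites, and CD40 and TNFRSF11B have more lost than gained sites.

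Over the 10 loci together, the counts lay near those of all sites. Of the 657 sites, 272 (41.4%) were in all 4 lists, compared with 42.8% of all sites. There were 22 gained (3.35%) and 30 lost (4.57%) sites. These pooled counts join unlike windows. Those of TNFRSF11B and CD40 held 12 and 10 of the lost sites and 2 gained sites each, whereas FAS had 5 gained and 0 lost. Sites above the 50th percentile in both libraries that had them were 3 of the gained and 2 of the lost, which is 0.457% and 0.304% of the 657, where such sites made up 0.591% and 0.210% of all sites. An untreated peak lay within 500 bp of 9 of the 22 gained sites, and a TWEAK peak within 500 bp of 20 of the 30 lost sites. Whether such a close peak and the site are the same open region was not tested. Left out one at a time, the libraries gave between 41 and 58 gained and between 51 and 97 lost sites.

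The share of each list's peaks that lay in the member windows was 0.235% and 0.216% in untreated and 0.219% and 0.214% in TWEAK libraries, from 489, 493, 478 and 418 peaks. The difference of -0.00870 percentage points was smaller than the SD of the untreated libraries (0.0135), with an exact permutation p of 0.667. It was 0.000852 without untreated replicate 1. In bulk cells, a site open in more of the cells and a site more open in each cell cannot be told apart.

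The shared member sites had a split of higher and lower sites close to that of the genome. By rank, 38 of the 272 were higher (13.97%) and 89 lower (32.7%) in both TWEAK lists, near the shares of all shared sites given above. By fold over background the split turned, with 91 higher (33.5%) and 28 lower (10.3%). As at TNFRSF1A, LTBR, CD40 and TNFRSF11B above, it turned in the windows of TNFRSF12A, with 5 higher and 10 lower of 35 by rank and 10 and 2 by fold, of TNFSF12, with 2 and 9 of 25 by rank and 8 and 2 by fold, and of TNFRSF10B, with 3 and 6 of 19 by rank and 8 and 2 by fold. Higher sites made up 29.9% of those that did not overlap by rank and 76.5% by fold, compared with 30.8% and 74.0% over all shared sites. The median log2 fold change of all shared sites was 0.14, and that of the member sites 0.13. The mean percentile of the shared member sites was 62.7 and 64.4 in untreated and 62.1 and 58.9 in TWEAK libraries, a difference of -3.01 points (exact permutation test, two-sided, p = 0.333), where that over all shared sites was -2.53 points (p = 0.667 in the same test). Its direction turned under the fold scale and under stricter thresholds, so a general fall or rise at these loci cannot be read from it.

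Against the median of 0.14 over all shared sites, the log2 fold change was 2.84 at the upstream TNFRSF10B site, 1.76 at the intronic TNFRSF8 site of the TNFRSF1B window, 1.72 at the CDH22 site of the CD40 window, 1.63 and 1.45 at the intergenic sites at 118843607 and 118905109 of the TNFRSF11B window and 1.34 at the FAS promoter. These sites were higher in both TWEAK lists on both scales. Values of similar size and opposite sign were found within the TNFRSF11B gene, with -1.46 at the site starting at 118925945 and -1.44 at that starting at 118944537, both lower on both scales. Of the 272 shared sites, 6 ranked at least 20 points higher with TWEAK and without overlap (2.21%), against 2.81% of all shared sites, a threshold set after the values were seen. They were in the windows of FAS (2), TNFRSF10B, TNFRSF11B, TNFSF12 and TNFRSF1B. By the same rule 13 member sites ranked at least 20 points lower (4.78%), against 4.84% of all shared sites, with 10 in the TNFRSF11B window and 1 each in those of TNFRSF12A, TNFRSF1A and CD40. By fold over background, 10 of the 13 were lower in both TWEAK lists and 3 overlapped. The site in the TNFRSF12A window, at 3101059 to 3101757, ranked at 48.9 and 56.4 in untreated and at 32.5 and 2.52 in TWEAK libraries. The site in the TNFRSF1A window, at 6237787 to 6238371, ranked at 45.8 and 50.99 in untreated and at 2.25 and 27.3 in TWEAK libraries.

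**Figure D4:**
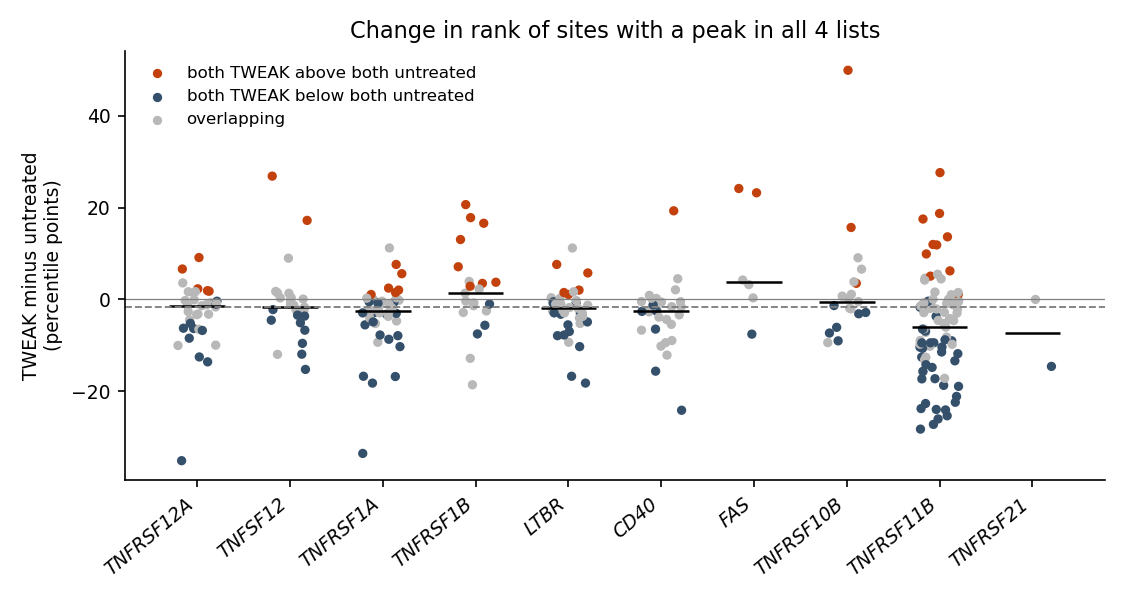
Change in rank percentile, TWEAK mean minus untreated mean, of each site with a peak in all 4 lists (points, 1 column for each gene). Red and blue mark sites whose TWEAK libraries both lay above or below both untreated libraries, black bars the median of each gene, and the dashed line the median of all shared sites at -1.75. The highest point is the TNFRSF10B upstream site at 49.9, and TNFRSF1B and FAS are the genes with medians above 0.

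The position and letters of the sites were then compared. Of the 657 sites, 170 were at promoters, 43 in exons, 209 in introns and 235 between genes. A member was the nearest protein-coding gene for 231 sites (35.2%), so most of the sites lie nearer to the start of another gene. In the 201 bases around the middle of the strongest peak of a site, the NF-kB consensus was found in 5 of the 22 gained and 2 of the 30 lost member sites, and in 8.68% of the 657, compared with 6.21% of all sites. AP-1 was found in 4 gained and 2 lost member sites and in 9.28% of the 657, compared with 9.01% of all sites. The 5 gained sites with an NF-kB match were those of FAS in the intron and downstream of the gene, IL32, SLC12A5 and TNFRSF10C. Among all gained sites of the genome, 20.1% held the NF-kB and 16.6% the AP-1 motif, and among all lost sites 4.28% and 4.90%. The GC box was found in 1 gained and 0 lost member sites and in 13.4% of the 657, against 10.5% of all sites, 5.73% of all gained and 6.58% of all lost sites. The CCAAT box was found in 1 gained and 4 lost member sites and in 24.8% of the 657, against 23.8% of all sites, 25.9% of all gained and 23.04% of all lost sites.

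Other genes of the superfamily were described by their promoter peaks. Among 20 other receptors, 14 had a promoter peak in all 4 lists, with 2 higher and 3 lower by rank and 6 higher and 2 lower by fold. Among 17 ligands, 10 had one, with 2 higher and 2 lower by rank and 2 higher and none lower by fold. No promoter of either list was gained or lost, where 83 were gained and 87 lost among all 19962 protein-coding genes. The highest mean percentiles were those of TNFSF13 at 96.0, the receptor RELT at 95.8 and the ligand EDA at 93.6. TNFSF15, which encodes the cytokine TL1A, ranked at 70.4 and 69.3 in untreated and at 92.9 and 92.7 in TWEAK libraries. TNF ranked at 77.8 and 75.8 in untreated and at 84.5 and 82.7 in TWEAK libraries. FASLG, the ligand of FAS, ranked at 67.8 and 72.6 in untreated and at 67.5 and 64.1 in TWEAK libraries, and its folds overlapped. TNFSF15, TNF and FASLG were named after their values were seen.

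The promoters with percentiles most like those of TNFRSF12A, by Euclidean distance over the 4 libraries, were TNFSF9 (4.79 points), TNFSF13B (5.19 points) and TNFRSF1A (6.49 points). Each of these ranked between 76.9 and 87.9 in every list. The order of the members by mean promoter percentile ran from LTBR at the top through TNFRSF11B, CD40 and TNFRSF21, whose values lay within the range from 91.3 to 97.5, to TNFRSF1A, TNFRSF12A and TNFRSF10B between 76.0 and 87.9, then TNFRSF1B and FAS, with TNFSF12 last. Within each of these bands the values of neighbouring genes overlapped.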

How the data were processed

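ATAC-seq peak lists of 4 SKBR3 libraries were analysed, 2 untreated and 2 treated with TWEAK, grouped by the titles given with the samples. Per the labels, the submitters' processing used Trimmomatic, Bowtie2, Picard and MACS2 on hg38, without stated versions, and peaks were called separately for each library. The deposited value of each peak, which the files do not name, was read as the −log10 of an uncorrected Poisson p-value, since each value returned a whole-number pileup against 1 background for the whole list, with an error of at most 0.00223 reads. It depends on depth, so it was turned into a rank percentile within its list or into pileup over background (fold). The study's DiffBind test needs reads and was not run.

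Peaks were 501 bp wide. Those on chromosomes 1 to 22 and X were merged where they overlapped by at least 1 bp. Promoters lay within 1 kb of any GENCODE release 44 start site, and the strongest peak there was used. Group differences were tested by exact permutation of the libraries, which measures only the spread between these libraries. Gained, lost, promoter and highest shared sites were named by rule. The members and lists were chosen with earlier results of these data known. Python 3.11.15, NumPy 2.4.6, pandas 2.3.3, SciPy 1.17.1 and samtools 1.23.1 were used. Sequence came from hg38 and from RefSeq promoters (GRCh38.p14).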

Additional observations from a re-analysis of the deposited data

How the results depend on the processing

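Alternatives were a window of 50 or 200 kb, the 5′ end of the gene as the start site, distance from the site's centre, a deposited value of at least 5, a fold of at least 5, equal list lengths, merging at 250 bp and leaving out each library. The difference in member peak share, -0.00870 percentage points, was -0.00225 and -0.0207 with windows of 50 and 200 kb, -0.0140 with a value of at least 5 and -0.00402 with a fold of at least 5, and between -0.0182 and 0.000852 when a library was left out, where it turned positive without untreated replicate 1. The shared-site percentile difference, -3.01 points, was 0.149 with a deposited value of at least 5, 2.66 with a fold of at least 5, -0.807 with equal list lengths and 0.168 as log2 fold, and between -4.97 and -1.98 without a library. The promoter percentile difference, 2.69 points, was -1.31 with distance from the centre and 0.876 with the gene's 5′ end, but 5.35 with a value of at least 5, 7.20 with a fold of at least 5 and 4.30 with equal list lengths, and between 1.66 and 3.72 without a library. The 22 gained sites were 13 with no peak of the other treatment within 500 bp and between 41 and 58 without a library, since fewer lists then define them. The 30 lost sites were 14 and 55 with windows of 50 and 200 kb, 18 with a value of at least 5, 12 with a fold of at least 5, 10 with no close peak of the other treatment and between 51 and 97 without a library.

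Of the values added after the data were seen, the TNFRSF1B promoter difference was between 9.36 and 25.8 points and that of the upstream TNFRSF10B site between 46.6 and 75.3 points over the percentile settings. The FAS and TNFRSF12A promoter differences were 0 with the gene's 5′ end, where no list has a peak, and the FAS difference was otherwise between 15.7 and 41.5 points. With the replicate number as a replicate block, sign flips gave the same differences with p = 0.5, the smallest this exact test can give. Across the 131751 shared sites the deviations of same-numbered libraries had r = -0.00606. This cannot settle whether same-numbered libraries shared a day or batch, which the sample titles do not state. Counts of weak sites are limited by depth, since the lowest pileup called was between 7 and 10 reads.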
